A study of Mus musculus with 12 samples.

Results

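The Ms4a family members described here are Ms4a4a, Ms4a4b, Ms4a4c, Ms4a4d, Ms4a6b, Ms4a6c, Ms4a6d, Ms4a7 and Ms4a8a. They were selected by gene symbol, as the rows of the expression table that carry these names, and they are 9 of its 37775 genes. All 9 passed the filter on low counts, which left 22118 genes for testing. The 4 fractions compared were sorted from ear skin of WT BALB/c mice with IgE-dependent chronic allergic inflammation (IgE-CAI), with 3 libraries per fraction and 12 in all. The mice received 300 μg of anti-TNP IgE intravenously and 10 μg of TNP-OVA in the right ear on the next day, and the ear was taken on day 5. No untreated ear, no other genotype and no other day was analysed here, and every fraction came from lesions induced in this way. The animals were male and 7 to 12 weeks old, and the sorted cells were CD45+CD11b+SiglecF-Ly6G-. Within that gate, Classical mono stands for Ly6C-high PD-L2-low classical monocytes and Early CMDM for Ly6C-high PD-L2-high early classical monocyte-derived macrophages. Late CMDM stands for Ly6C-low PD-L2-high late monocyte-derived macrophages and Resident-like for Ly6C-low PD-L2-low resident-like macrophages. Each library was made from 5000 to 80000 cells by capture of polyadenylated RNA. The sources used here do not give the number of animals behind a library, so p-values measure the spread between these libraries, which may be technical.

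MS4A proteins are small membrane proteins that cross the plasma membrane several times and sit beside receptors, whose trafficking and signalling they modulate. The founding members are known from lymphocytes and mast cells: Ms4a1 encodes CD20 of B cells, and Ms4a2 encodes the beta chain of the high-affinity IgE receptor. In the mouse the family has expanded into the Ms4a4 and Ms4a6 groups, and several of its members, such as Ms4a4a and Ms4a7, are widely used as macrophage genes.

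All 9 members lie within 537 kb of chromosome 19 in the GRCm38 annotation (GENCODE M21), from Ms4a8a at chr19:11067471-11081102 to Ms4a6d at chr19:11586604-11604849. Ms4a4a, Ms4a4b, Ms4a4c, Ms4a4d, Ms4a6b and Ms4a6c are on the plus strand, and Ms4a6d, Ms4a7 and Ms4a8a are on the minus strand. The 250 bases before the RefSeq start are given for 4 members, to show members with either of 2 patterns over the fractions. Ms4a4b and Ms4a4c were highest in Classical mono, and Ms4a4a and Ms4a7 were highest in Late CMDM. The sequences are those of RefSeq (GRCm38.p6), written 5′ to 3′ on the strand of the gene, with motif matches in capitals. Windows were found for 8 of the 9 members, and Ms4a7 has another RefSeq start whose window is not shown. The windows are chr19:11443308-11443557 (plus strand) for Ms4a4b, chr19:11407411-11407660 (plus strand) for Ms4a4c, chr19:11375238-11375487 (plus strand) for Ms4a4a and chr19:11336147-11336396 (minus strand) for Ms4a7.
Ms4a4b: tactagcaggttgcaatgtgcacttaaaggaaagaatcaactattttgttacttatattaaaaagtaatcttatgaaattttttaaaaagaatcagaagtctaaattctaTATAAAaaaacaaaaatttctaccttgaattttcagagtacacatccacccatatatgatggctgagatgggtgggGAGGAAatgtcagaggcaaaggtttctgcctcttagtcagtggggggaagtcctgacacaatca
Ms4a4c: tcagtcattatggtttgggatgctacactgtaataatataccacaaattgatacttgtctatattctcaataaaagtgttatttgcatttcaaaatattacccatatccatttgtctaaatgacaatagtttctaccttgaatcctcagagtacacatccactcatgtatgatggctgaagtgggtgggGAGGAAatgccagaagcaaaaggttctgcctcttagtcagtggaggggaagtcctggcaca
Ms4a4a: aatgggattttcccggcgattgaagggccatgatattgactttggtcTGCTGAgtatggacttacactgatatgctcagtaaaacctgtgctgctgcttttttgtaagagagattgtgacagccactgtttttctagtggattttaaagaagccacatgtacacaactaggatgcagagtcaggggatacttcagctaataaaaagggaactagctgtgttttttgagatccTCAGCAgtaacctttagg
Ms4a7: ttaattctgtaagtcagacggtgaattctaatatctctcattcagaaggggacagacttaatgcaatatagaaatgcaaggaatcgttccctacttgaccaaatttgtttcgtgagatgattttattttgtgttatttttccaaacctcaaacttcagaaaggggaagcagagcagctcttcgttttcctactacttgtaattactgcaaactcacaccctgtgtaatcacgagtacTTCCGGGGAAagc
The windows of Ms4a4b and Ms4a4c were 89.1% identical over 128 aligned columns. Both hold GAGGAA, letters of the PU.1 type, 64 to 59 bases before the start in Ms4a4b and 61 to 56 bases before it in Ms4a4c. These letters, searched on both strands like the other motifs, are in 23.3% of the 32851 windows of all genes. Ms4a4b also holds TATAAA, found in 12.4% of windows. In the Ms4a4a window the capitals mark TGCTGA, the letters at the core of MAF sites, which occur once on each strand and are in 16.1% of all windows. The capitals in the Ms4a7 window mark a match to the STAT6 type, TTC and GAA with 4 bases between them, 13 to 4 bases before the start, and 5.85% of windows hold a match. No member window held an interferon response match, GAAA repeated after a gap of 2 bases (2.98% of all windows), or CACGTG, the E-box (6.02%). The windows of Ms4a6b and Ms4a6c were 83.5% identical over 182 columns. A match is a description of letters and not a binding site.

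Library totals ranged from 12537178 to 19844113 counts. The limit that a count of 0 allows, 3 counts, corresponded to 0.162 to 0.239 CPM, the count scaled to a common library size. Levels are given as CPM after TMM normalization, with mean ± SD over 3 libraries. All 8 monocyte and macrophage markers checked were detected in every fraction. Ly6c2, which encodes Ly6C, was at 380.0 to 607 CPM in Classical mono, 44.1 to 53.6 in Early CMDM, 16.6 to 21.98 in Late CMDM and 15.9 to 18.9 in Resident-like. Early CMDM libraries stood apart from the others in keratinocyte and pan-leukocyte RNA. The summed level of 6 keratinocyte markers was 17096 to 27284 CPM in Early CMDM and 1871 to 4050 CPM in the other 9 libraries. The summed level of 10 pan-leukocyte genes was 1317 to 2149 CPM in Early CMDM, against 4897 to 5229 in Classical mono, 2928 to 3384 in Late CMDM and 4672 to 4812 in Resident-like. In bulk RNA, fewer cells of a type and less RNA per cell cannot be told apart. Each difference was therefore also computed with the libraries scaled to these 10 pan-leukocyte genes, called leukocyte scaling below. All 10 genes were lower in Early CMDM than in Classical mono, but only 7 were lower in Late CMDM, and 3 did not pass the test. Of all genes, 20.6% and 17.5% were lower in these comparisons. Mean Coro1a was 642 CPM in Classical mono and 124 in Late CMDM, whereas Cyba was 540 and 573 CPM. Scaled values thus depend on the genes listed, and other lists were not tested. Leukocyte scaling raised the median log2 difference of all genes by 1.63 for Early CMDM against Classical mono and by 0.67 for Late CMDM against Classical mono. It shifted the median by -0.96 for Late CMDM against Early CMDM, by -0.57 for Resident-like against Late CMDM, by 0.10 for Resident-like against Classical mono and by -1.53 for Resident-like against Early CMDM.

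**Figure D1:**
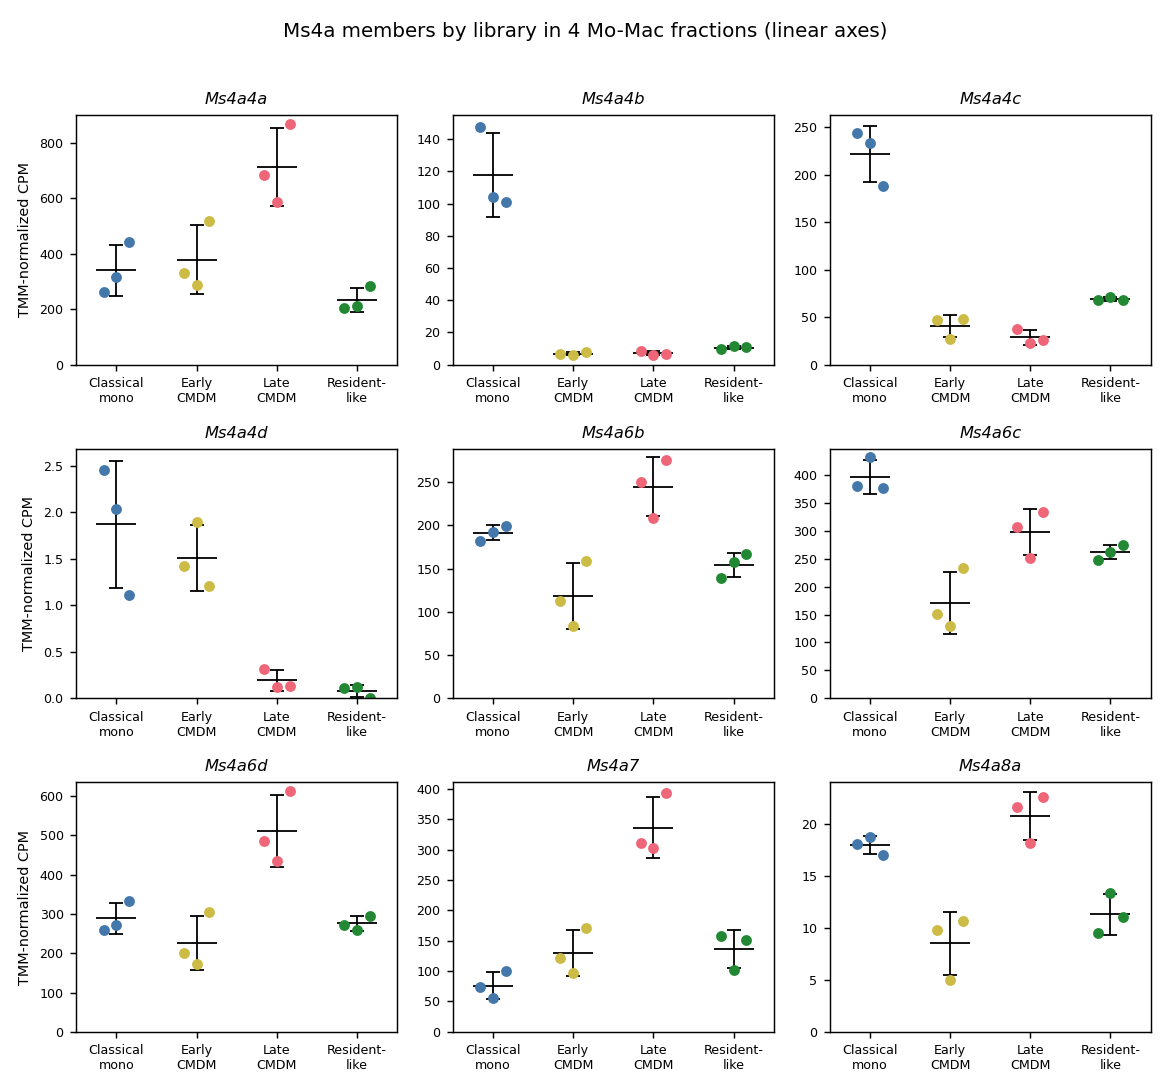
Each panel shows 1 Ms4a member, with the fraction on the x axis and TMM-normalized CPM on a linear y axis that starts at 0. Points are libraries, long bars are means and whiskers are SD over 3 libraries. Ms4a4b, Ms4a4c, Ms4a4d and Ms4a6c have their highest mean in Classical mono, and the other 5 members in Late CMDM.

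Ms4a4a encodes a macrophage surface protein that associates with the beta-glucan receptor Dectin-1. Its level was 262, 317 and 443 CPM in the Classical mono libraries, 329.6, 286 and 520.1 in Early CMDM, 683, 588 and 867 in Late CMDM, and 203, 212 and 284 in Resident-like. Every Late CMDM library was above every other library, and the ranges of Classical mono and Early CMDM overlapped with each other. Late CMDM exceeded Classical mono by 1.07 on the log2 scale (SE 0.24, edgeR adjusted p = 0.00353) and 1.73 with leukocyte scaling. Resident-like was below Late CMDM, with a log2 difference of -1.61 (SE 0.25, edgeR adjusted p = 0.000272) and -2.18 with leukocyte scaling. The higher level in Late CMDM than in Early CMDM, by 0.91 on the log2 scale (SE 0.24, edgeR adjusted p = 0.0102), was lost with leukocyte scaling, where the log2 difference was 0.00152 (edgeR adjusted p = 0.994). Early CMDM against Classical mono did not pass the test with TMM (log2 difference 0.15, SE 0.24, edgeR adjusted p = 0.639, and -0.14 without Early CMDM replicate 3), and Early CMDM was above by 1.73 with leukocyte scaling (edgeR adjusted p = 1.56e-09). The order of the means was thus Late CMDM, Early CMDM, Classical mono and Resident-like, and neither of the last 2 steps passed the test. The step from Early to Late CMDM missed the threshold without Early CMDM replicate 2 (edgeR adjusted p = 0.0624), without Late CMDM replicate 3 (0.0516) or without the filter on low counts (0.0729). Resident-like was below Early CMDM with a log2 difference of -0.70 (SE 0.24, edgeR adjusted p = 0.0291) and -2.17 with leukocyte scaling. The TMM call was lost without Early CMDM replicate 3 (0.164), Resident-like replicate 1 (0.106), Resident-like replicate 2 (0.0960) or the filter (0.124). The genes whose log2 CPM was most correlated with that of Ms4a4a over the 12 libraries were Dolk (r = 0.979), Gm49151 (r = 0.971) and Slc31a1 (r = 0.968).

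Ms4a4b is known from T cells, where its product associates with the receptor GITR. Its level was 148, 104 and 100.9 CPM in Classical mono, 6.74, 5.69 and 7.72 in Early CMDM, 8.60, 6.20 and 6.41 in Late CMDM, and 9.81, 11.3 and 10.7 in Resident-like. Classical mono was far above the other fractions, with no overlap. Against Classical mono, the log2 difference was -4.13 in Early CMDM (SE 0.18, edgeR adjusted p = 1.54e-10), -4.06 in Late CMDM (SE 0.18, edgeR adjusted p = 1.76e-10) and -3.47 in Resident-like (SE 0.17, edgeR adjusted p = 6e-10). With leukocyte scaling these differences were -2.53, -3.40 and -3.38, all past the threshold. Late against Early CMDM did not pass the test (log2 difference 0.06, SE 0.19, edgeR adjusted p = 0.833), and its sign turned with leukocyte scaling, to -0.87 (edgeR adjusted p = 0.000956). It also turned without Early CMDM replicate 2 (-0.050) or Late CMDM replicate 1 (-0.093). Resident-like was above Early CMDM by 0.65 (SE 0.18, edgeR adjusted p = 0.00648), which leukocyte scaling turned to -0.85. Resident-like was above Late CMDM by 0.59 (SE 0.18, edgeR adjusted p = 0.0209), a call lost with leukocyte scaling (log2 difference 0.0140, edgeR adjusted p = 0.959). It was also lost without Late CMDM replicate 2 (edgeR adjusted p = 0.0968), Late CMDM replicate 3 (0.0864), Resident-like replicate 2 (0.0626) or Resident-like replicate 3 (0.0537).

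T cell markers moved with Ms4a4b. All 7 T cell markers were lower in Late CMDM and in Resident-like than in Classical mono, and 6 of 7 were lower in Early CMDM. Of all genes, 17.5%, 12.9% and 20.6% were lower in these 3 comparisons, in that order. The summed level of the 7 markers was 276 to 448 CPM in Classical mono, 166 to 197 in Early CMDM, 71.2 to 98.05 in Late CMDM and 54.7 to 79.3 in Resident-like, and none of the 7 was at 0 in all libraries of a fraction. Much of the sum was Thy1, which was 198 ± 62.8 CPM in Classical mono and 158 ± 16.3 in Early CMDM. Lck, the T cell kinase, was 30.3 ± 5.88 CPM in Classical mono and 1.40 ± 0.0786 in Early CMDM, and Cd3e was 18.0 ± 1.84 and 2.95 ± 0.220 CPM. The 3 genes whose log2 CPM was most correlated with that of Ms4a4b were Lck (r = 0.997), Skap1 (r = 0.996) and Cd7 (r = 0.992). These are descriptions over 12 libraries that fall into 4 fractions. The sort gate required CD11b, and the part of T cell RNA in the Ms4a4b difference was not tested.

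Ms4a4c is the nearest relative of Ms4a4b among the members. Its level was 244, 233 and 188 CPM in Classical mono, 46.8, 26.8 and 48.0 in Early CMDM, 37.8, 22.7 and 26.2 in Late CMDM, and 68.0, 71.0 and 68.3 in Resident-like. Classical mono was above the other fractions without overlap, and Resident-like lay between Classical mono and both CMDM fractions. Against Classical mono, the log2 difference was -2.45 in Early CMDM (SE 0.21, edgeR adjusted p = 4.12e-07), -2.94 in Late CMDM (SE 0.22, edgeR adjusted p = 1.56e-07) and -1.68 in Resident-like (SE 0.21, edgeR adjusted p = 2.91e-05). With leukocyte scaling these were -0.87, -2.28 and -1.59, and all passed the test. Resident-like exceeded Late CMDM by 1.26 (SE 0.21, edgeR adjusted p = 0.000488) and by 0.69 with leukocyte scaling (edgeR adjusted p = 0.00408). Against Early CMDM it was higher by 0.77 (SE 0.21, edgeR adjusted p = 0.00729), a direction that leukocyte scaling turned to -0.72 (edgeR adjusted p = 0.000871). Late against Early CMDM did not pass the test with TMM (log2 difference -0.49, edgeR adjusted p = 0.0932). Late CMDM was lower without Early CMDM replicate 2 (edgeR adjusted p = 0.00507), without Late CMDM replicate 1 (0.0183) and with leukocyte scaling (log2 difference -1.41, edgeR adjusted p = 4.43e-07). The genes most correlated with Ms4a4c were Gnas (r = 0.981), Trem1 (r = 0.980) and Klrk1 (r = 0.975).

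Ms4a4d was the least abundant member. It had 40, 37 and 20 counts in the Classical mono libraries, 23, 30 and 19 in Early CMDM, 4, 2 and 2 in Late CMDM, and 2, 2 and 0 in Resident-like. The Ly6C-high fractions thus held nearly all of its reads and did not overlap with the Ly6C-low fractions. The ratio of Classical mono to Resident-like was 24.1 (95% counting interval 9.11 to 90.2, from 97 and 4 counts) and that of Classical mono to Late CMDM was 10.2 (4.95 to 24.2, from 97 and 8 counts). The ratio of Early CMDM to Resident-like was 19.6 (7.33 to 73.9, from 72 and 4 counts) and that to Late CMDM was 8.26 (3.97 to 19.9, from 72 and 8 counts). The intervals cover counting error only. These 4 differences passed edgeR's test, with edgeR adjusted p = 1.70e-05, 8.17e-05, 2.03e-05 and 0.000322 in that order, and passed it with leukocyte scaling. Early CMDM against Classical mono did not pass the test with TMM (log2 difference -0.30, SE 0.35, edgeR adjusted p = 0.508), whereas leukocyte scaling put Early CMDM higher by 1.34 (edgeR adjusted p = 0.00294). Fibroblast markers moved with Ms4a4d, since all 6 were lower in Late CMDM and Resident-like than in either Ly6C-high fraction. Of all genes, 17.5% were lower in Late CMDM and 12.9% in Resident-like than in Classical mono. Against Early CMDM the shares were 17.5% and 25.1%. The summed level of the 6 fibroblast markers was 3254 to 5588 CPM in Classical mono, 2988 to 4205 in Early CMDM, 478 to 499 in Late CMDM and 276 to 358 in Resident-like, with no marker at 0. The genes most correlated with Ms4a4d were Tnik (r = 0.990), Cpz (r = 0.988) and Adgrd1 (r = 0.987), over the same 12 libraries. The part of fibroblast RNA in the Ms4a4d difference was not tested.

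**Figure D2:**
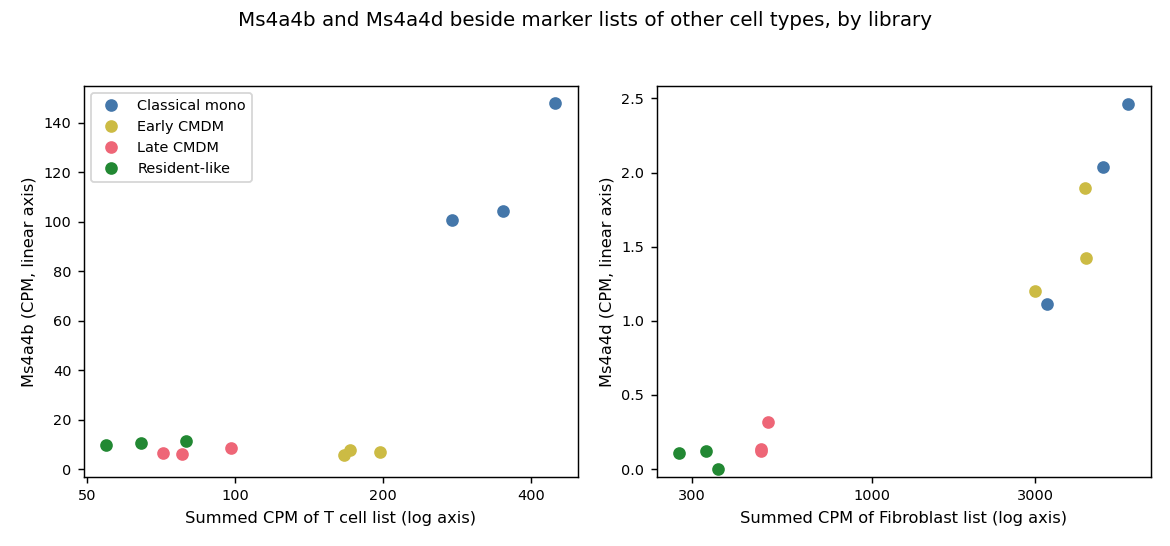
Each point is a library, coloured by fraction, with the summed CPM of a marker list on a log x axis and the CPM of the Ms4a member on a linear y axis. On the left, Ms4a4b lies at 100.9 to 148 CPM in the 3 Classical mono libraries, where the T cell list is highest (276 to 448 CPM), and at 11.3 CPM or less in the others, and on the right Ms4a4d is higher in the 6 libraries with a fibroblast list of 2988 CPM or more.

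The Ms4a6 group differed less between fractions than Ms4a4b, Ms4a4c or Ms4a4d. Ms4a6b was at 182, 193 and 199.6 CPM in Classical mono, 112, 83.8 and 159 in Early CMDM, 250.1, 209 and 276 in Late CMDM, and 139, 157 and 167 in Resident-like. The Late CMDM libraries were the highest and the Early CMDM libraries reached the lowest values, while Early CMDM and Resident-like overlapped. With TMM, Early CMDM was below Classical mono (log2 difference -0.69, SE 0.18, edgeR adjusted p = 0.00456), a direction that leukocyte scaling turned to 0.88 (edgeR adjusted p = 9.68e-06). Late CMDM was above Early CMDM by 1.05 (SE 0.18, edgeR adjusted p = 0.000305), which leukocyte scaling reduced to 0.14 (edgeR adjusted p = 0.418). Resident-like was below Late CMDM with both scalings (log2 difference -0.67, SE 0.18, edgeR adjusted p = 0.0103, and -1.23 with leukocyte scaling), and the TMM call was lost without Late CMDM replicate 3 (edgeR adjusted p = 0.0510). No neighbouring means in the order Late CMDM, Classical mono, Resident-like and Early CMDM passed the test. Late CMDM against Classical mono, at 0.35 on the log2 scale (edgeR adjusted p = 0.131), passed when only those 6 libraries were fitted (0.0302), without Early CMDM replicate 2 (0.0450), without Early CMDM replicate 3 (0.0324) and with leukocyte scaling (log2 difference 1.02, edgeR adjusted p = 5.07e-06). The difference of 0.38 between Resident-like and Early CMDM (edgeR adjusted p = 0.0882) passed without Early CMDM replicate 3 (log2 difference 0.66, edgeR adjusted p = 0.00130), and with leukocyte scaling it turned to -1.09. The genes most correlated with Ms4a6b were Aldh3b1 (r = 0.963), Tnfaip8l2 (r = 0.954) and Ms4a8a (r = 0.950).

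Ms4a6c was the member of this group with its highest level in monocytes. It was at 380.3, 432 and 377 CPM in Classical mono, 152, 129 and 234 in Early CMDM, 308, 252 and 334 in Late CMDM, and 249, 263 and 274 in Resident-like. Classical mono did not overlap with any other fraction. Early CMDM was below Classical mono with TMM (log2 difference -1.21, SE 0.17, edgeR adjusted p = 3.76e-05), and leukocyte scaling turned this to 0.36 (edgeR adjusted p = 0.0343). Late CMDM exceeded Early CMDM by 0.79 (SE 0.17, edgeR adjusted p = 0.00229), which leukocyte scaling turned to -0.11 (edgeR adjusted p = 0.522). Resident-like was below Classical mono by a log2 difference of -0.60 (SE 0.17, edgeR adjusted p = 0.0186) and -0.50 with leukocyte scaling (edgeR adjusted p = 0.0285). The TMM call was lost without Classical mono replicate 2 (edgeR adjusted p = 0.0626), Resident-like replicate 1 (0.0652) or Resident-like replicate 2 (0.0537). Resident-like was above Early CMDM by 0.61 (edgeR adjusted p = 0.00908), and leukocyte scaling turned this to -0.87. Resident-like against Late CMDM did not pass the test with TMM (log2 difference -0.19, edgeR adjusted p = 0.470), and Resident-like was lower with leukocyte scaling (-0.75, edgeR adjusted p = 0.000427). Late CMDM against Classical mono was -0.41 (edgeR adjusted p = 0.0745) and passed in a fit of those 6 libraries (0.0277), without Early CMDM replicate 2 (0.0381) and without Early CMDM replicate 3 (0.00944), whereas leukocyte scaling turned it to 0.25 (0.175). The genes most correlated with Ms4a6c were Ceacam2 (r = 0.971), Fis1 (r = 0.963) and Tpd52 (r = 0.961).

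Ms4a6d, whose product has been described in a complex with the macrophage receptor VSIG4, was highest in Late CMDM. Its level was 260.2, 273 and 332 CPM in Classical mono, 202, 172 and 305 in Early CMDM, 486, 435 and 612 in Late CMDM, and 272, 260.0 and 296 in Resident-like. Late CMDM did not overlap with any other fraction, and the other 3 fractions overlapped with each other. Late CMDM exceeded Classical mono by 0.83 (SE 0.18, edgeR adjusted p = 0.00229) and by 1.49 with leukocyte scaling. Resident-like was below Late CMDM, with a log2 difference of -0.89 (SE 0.18, edgeR adjusted p = 0.00190) and -1.46 with leukocyte scaling. The difference of 1.18 between Late and Early CMDM (SE 0.18, edgeR adjusted p = 0.000158) fell to 0.26 with leukocyte scaling and missed the threshold (edgeR adjusted p = 0.146). Early CMDM against Classical mono was -0.35 (edgeR adjusted p = 0.131). It passed as lower without Early CMDM replicate 3 (-0.62, edgeR adjusted p = 0.00304), and with leukocyte scaling it turned to 1.23 (edgeR adjusted p = 6.50e-08). Resident-like against Early CMDM was 0.29 (edgeR adjusted p = 0.213), passed without Early CMDM replicate 3 (0.57, edgeR adjusted p = 0.00551) and turned to -1.19 with leukocyte scaling. Resident-like against Classical mono was -0.06 (edgeR adjusted p = 0.852), and its sign turned with leukocyte scaling (0.0365) and without Classical mono replicate 3 (0.050). The genes most correlated with Ms4a6d were Sft2d1 (r = 0.984), Mpp1 (r = 0.975) and Plin2 (r = 0.964).

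Ms4a7, a gene widely used as a macrophage marker, had the largest increase from Classical mono to Late CMDM of the 9 members. It was at 73.1, 54.8 and 100.1 CPM in Classical mono, 121, 97.1 and 171 in Early CMDM, 310.3, 303 and 394 in Late CMDM, and 158, 101.2 and 151 in Resident-like. Late CMDM stood above all other libraries, and Classical mono had the lowest mean. The log2 difference of Late CMDM from Classical mono was 2.14 (SE 0.25, edgeR adjusted p = 1.84e-05) and 2.81 with leukocyte scaling. Late CMDM exceeded Early CMDM by 1.37 (SE 0.25, edgeR adjusted p = 0.000755), and by 0.46 with leukocyte scaling (edgeR adjusted p = 0.0323). Resident-like was below Late CMDM, with a log2 difference of -1.30 (SE 0.24, edgeR adjusted p = 0.00146) and -1.87 with leukocyte scaling. Early CMDM was above Classical mono by 0.77 (SE 0.24, edgeR adjusted p = 0.0200) and by 2.36 with leukocyte scaling. The TMM call was lost without Classical mono replicate 1 (edgeR adjusted p = 0.0629), Classical mono replicate 2 (0.0730), Early CMDM replicate 3 (0.107) or the filter on low counts (0.0958). Resident-like was above Classical mono by 0.85 (SE 0.24, edgeR adjusted p = 0.0222) and by 0.95 with leukocyte scaling. This call was lost without Classical mono replicate 1 (edgeR adjusted p = 0.0772), Classical mono replicate 2 (0.0790), Resident-like replicate 1 (0.0824), Resident-like replicate 3 (0.0646) or the filter (0.114). Resident-like against Early CMDM did not pass the test with TMM (log2 difference 0.07, edgeR adjusted p = 0.826), and leukocyte scaling turned this to -1.41 (edgeR adjusted p = 9.04e-08). Its sign also turned without Early CMDM replicate 2 (-0.10), Resident-like replicate 1 (-0.043) or Resident-like replicate 3 (-0.00248). The genes most correlated with Ms4a7 over the 12 libraries were Tspan4 (r = 0.983), Mertk (r = 0.981), the receptor tyrosine kinase of apoptotic cell uptake, and Slc17a5 (r = 0.981). Mertk was at 6.85 ± 2.84 CPM in Classical mono, 11.6 ± 5.02 in Early CMDM, 27.2 ± 1.80 in Late CMDM and 12.3 ± 2.65 in Resident-like. These Mertk levels are with TMM only. The correlations are descriptions over 12 libraries that fall into 4 fractions.

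Ms4a8a, known from alternatively activated macrophages, was at a lower level of 18.1, 18.8 and 17.1 CPM in Classical mono, 9.83, 5.00 and 10.7 in Early CMDM, 21.7, 18.2 and 22.6 in Late CMDM, and 9.49, 13.4 and 11.1 in Resident-like. Classical mono and Late CMDM overlapped, as did Early CMDM and Resident-like, and the former pair was above the latter pair. Late CMDM exceeded Early CMDM by 1.29 (SE 0.21, edgeR adjusted p = 0.000223), which leukocyte scaling reduced to 0.38 (edgeR adjusted p = 0.110). Early CMDM was below Classical mono with TMM (log2 difference -1.08, SE 0.21, edgeR adjusted p = 0.000591), and leukocyte scaling turned this to 0.49 (edgeR adjusted p = 0.0320). Resident-like was below Late CMDM with both scalings (-0.88, SE 0.21, edgeR adjusted p = 0.00467, and -1.45 with leukocyte scaling). Resident-like was also below Classical mono (-0.67, edgeR adjusted p = 0.0263), a call lost with leukocyte scaling (0.0676) and without Classical mono replicate 1 (0.0696), Classical mono replicate 2 (0.0661), Resident-like replicate 1 (0.106) or Resident-like replicate 3 (0.0776). Late CMDM against Classical mono was 0.21 (edgeR adjusted p = 0.454), and 0.88 with leukocyte scaling (edgeR adjusted p = 0.000885). Resident-like against Early CMDM was 0.41 (edgeR adjusted p = 0.134). It passed without Early CMDM replicate 3 (0.61, edgeR adjusted p = 0.0423), and leukocyte scaling turned it to -1.06. Ms4a8a and Ms4a6b were among each other's 3 most correlated genes (r = 0.950).

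Within Early CMDM the libraries were ordered alike for nearly every member. Replicate 3 was the highest of the 3 libraries for 8 of 9 members, and replicate 2 was the lowest for 8 of 9, with Ms4a4d as the exception in both cases. The summed level of the 10 pan-leukocyte genes was 2149 CPM in replicate 3, 1581 in replicate 1 and 1317 in replicate 2, and that of the keratinocyte markers was 17096, 23851 and 27284 CPM. In Late CMDM, replicate 2 was the lowest for all 9 members and had the lowest pan-leukocyte level of that fraction (2928 CPM). The part of these differences in cell content in the spread between replicates was not tested.

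The members were then counted by comparison, each against the share of all 22118 genes that passed the same test. Between Classical mono and Early CMDM, 6 of 9 members differed, 1 higher and 5 lower in Early CMDM, where 44.9% of all genes were called, 24.2% higher and 20.6% lower. The median log2 difference of the members was -0.69, against -0.01 for all genes. Ms4a7 was the member that was higher, and Ms4a4b, Ms4a4c, Ms4a6b, Ms4a6c and Ms4a8a were lower. With leukocyte scaling 7 members were higher and 2 lower, and 3 of the 6 calls kept their direction, those of Ms4a4b, Ms4a4c and Ms4a7. The share of higher genes among all called genes was 54.0% with TMM and 97.4% with leukocyte scaling, which called 20268 of the 22118 genes.

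Between Early and Late CMDM, 7 of 9 members differed, with 6 higher and 1 lower in Late CMDM, where 31.9% of all genes were called, 14.4% higher and 17.5% lower. The higher members were Ms4a4a, Ms4a6b, Ms4a6c, Ms4a6d, Ms4a7 and Ms4a8a, and the lower member was Ms4a4d. The median log2 difference of the members was 0.91, against 0.02 for all genes. With leukocyte scaling 1 member was higher and 3 were lower, and 2 of the 7 calls kept their direction, those of Ms4a7 and Ms4a4d. Of all called genes, 45.1% were higher with TMM and 0.951% with leukocyte scaling, which called 16087 of the 22118 genes.

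Between Classical mono and Late CMDM, 6 of 9 members differed, where 35.6% of all genes were called, 18.1% higher and 17.5% lower. Ms4a4a, Ms4a6d and Ms4a7 were higher in Late CMDM and Ms4a4b, Ms4a4c and Ms4a4d were lower. All 6 calls kept their direction with leukocyte scaling, in which 5 members were higher and 3 lower, while the share of higher genes among all called genes went from 50.8% to 90.7%. With that scaling 13169 of the 22118 genes were called. The median log2 difference of the members was 0.21, against -0.01 for all genes.

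Between Late CMDM and Resident-like, 7 of 9 members differed, where 28.1% of all genes were called, 12.7% higher and 15.4% lower. Ms4a4b and Ms4a4c were higher in Resident-like, and Ms4a4a, Ms4a6b, Ms4a6d, Ms4a7 and Ms4a8a were lower. With leukocyte scaling 6 of the 7 calls kept their direction, the exception being Ms4a4b, and the share of higher genes among all called genes went from 45.1% to 5.82%. The median log2 difference of the members was -0.88, against 0.00275 for all genes.

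Resident-like differed from Classical mono in 6 of 9 members, where 23.7% of all genes were called, 10.8% higher and 12.9% lower. Ms4a7 was higher, and Ms4a4b, Ms4a4c, Ms4a4d, Ms4a6c and Ms4a8a were lower. Of these 6 calls, 5 kept their direction with leukocyte scaling, all but that of Ms4a8a. Resident-like differed from Early CMDM in 5 of 9 members, where 46.6% of all genes were called, 21.4% higher and 25.1% lower. Ms4a4b, Ms4a4c and Ms4a6c were higher with TMM and lower with leukocyte scaling, and Ms4a4a and Ms4a4d were lower with both. With leukocyte scaling all 9 members were lower in Resident-like than in Early CMDM, and 1.73% of all called genes were higher, against 46.0% with TMM. With that scaling 19878 of the 22118 genes were called. The 6 comparisons share libraries and are not independent of each other.

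**Figure D3:**
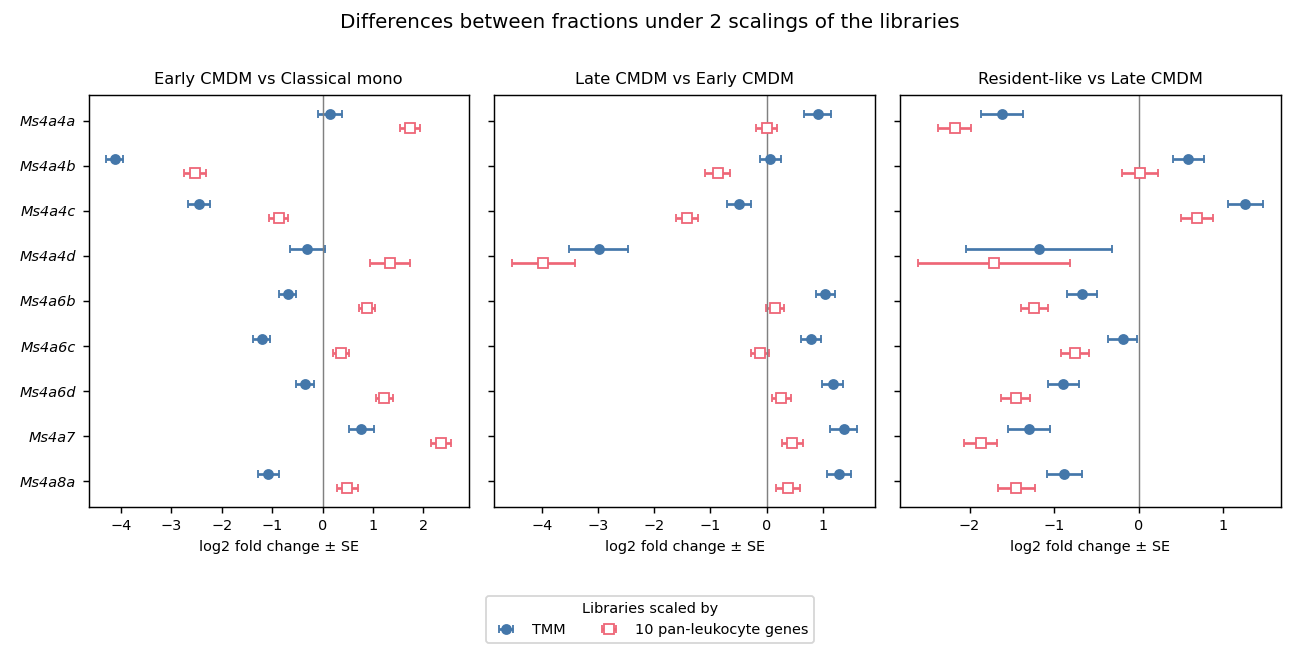
Each panel is 1 comparison, with the log2 fold change of the first fraction over the second on the x axis and the 9 members on the y axis. Filled circles are TMM-normalized values, open squares are values with the libraries scaled by 10 pan-leukocyte genes, and whiskers are SE. The scalings differ in sign for 5 members in Early CMDM against Classical mono and for 2 members, Ms4a4b and Ms4a6c, in Late against Early CMDM, and for no member in Resident-like against Late CMDM.

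Levels of different members can be compared per length of transcript, which was done with the longest protein-coding transcript of each member in GENCODE M21, from 836 bases for Ms4a4a to 4750 bases for Ms4a4b. On this measure Ms4a4a was the first of the 9 members in every fraction. Without division by length, Ms4a6c had a higher mean than Ms4a4a in Classical mono (397 against 340 CPM). In Resident-like, Ms4a6c (262 CPM) and Ms4a6d (276 CPM) were above Ms4a4a (233 CPM). Whether counts rise with transcript length in these libraries was not tested. Ms4a4a made up 36.0% ± 5.71 of the summed CPM per kb in Classical mono, 52.2% ± 1.23 in Early CMDM, 49.5% ± 1.17 in Late CMDM and 34.1% ± 3.07 in Resident-like. Ms4a6d took 18.2% ± 0.495, 18.4% ± 0.195, 21.0% ± 0.322 and 24.0% ± 0.951 in the same order. Ms4a7 had its smallest share in Classical mono, at 4.29% ± 0.974, and 9.56% ± 0.329, 12.5% ± 0.737 and 10.7% ± 2.26 in the other fractions. Ms4a4c had 11.7% ± 2.74 in Classical mono, 2.76% ± 0.643 in Early CMDM, 0.991% ± 0.296 in Late CMDM and 4.97% ± 0.547 in Resident-like. Ms4a6c had 19.5% ± 2.76, 10.8% ± 0.132, 9.47% ± 0.591 and 17.6% ± 1.21. A share is taken within a library and so does not depend on how libraries are scaled to each other. Ms4a4c and Ms4a6c thus had their largest mean shares in Classical mono and Ms4a4a in Early and Late CMDM, while the mean share of Ms4a7 was larger in each of the 3 macrophage fractions than in Classical mono. These shares were not tested. The summed level of the 9 members was 1117 ± 125 CPM per kb in Classical mono, 866 ± 273 in Early CMDM, 1717 ± 299.6 in Late CMDM and 813 ± 82.4 in Resident-like.

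**Figure D4:**
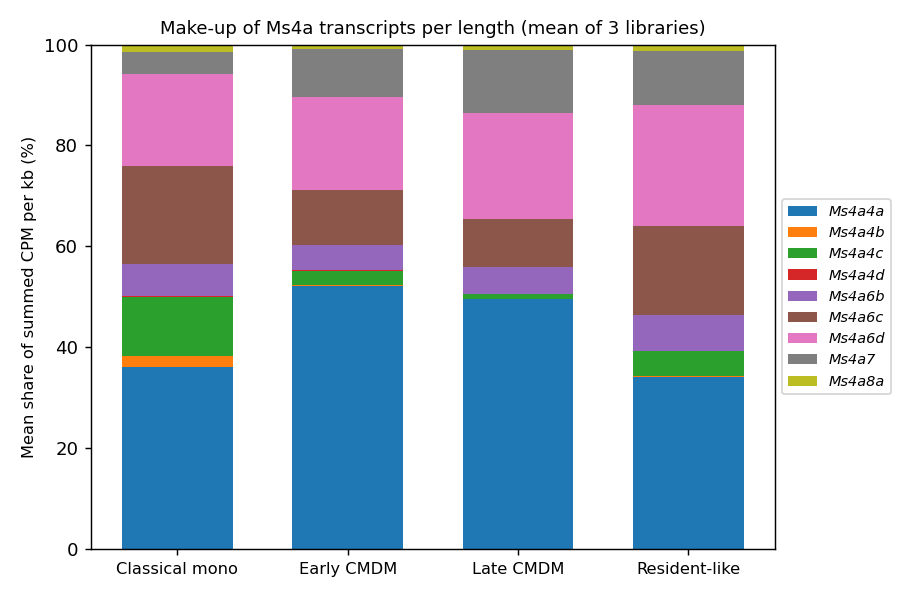
Stacked bars give the mean share of each member in the summed CPM per kb of the 9 members (y axis, percent), for the 4 fractions on the x axis, over 3 libraries each. Ms4a4a is the largest part in every fraction (34.1% to 52.2%), and Ms4a4c shrinks from 11.7% in Classical mono to 0.991% in Late CMDM.

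Reads of close relatives can be divided wrongly between genes when they are counted. Of the 50-base stretches in the transcript of Ms4a4c, 8.48% also occur in another gene, and the figure was 4.19% for Ms4a4b, 5.89% for Ms4a6b, 11.3% for Ms4a6c, 2.92% for Ms4a6d and 0.546% for Ms4a4d. None of the stretches of Ms4a4a, Ms4a7 or Ms4a8a was shared. The transcripts of Ms4a4b and Ms4a4c were 82.8% identical over 1444 bases, and those of Ms4a6b and Ms4a6c were 86.1% identical over 1234 bases. Values of these 4 genes are less certain for that reason. The counts of the Ms4a4 group were also summed to 1 row, which Ms4a4a dominates in both CMDM fractions. The sum was higher in Late than in Early CMDM by 0.81 (SE 0.19, edgeR adjusted p = 0.00381), while the median of its 4 members was -0.22. The summed Ms4a6 group was higher by 1.03 (SE 0.17, edgeR adjusted p = 0.000278). Ms4a4a shared no stretch and was higher by 0.91 in that comparison. The Ms4a4 sum thus cannot test how reads of Ms4a4b and Ms4a4c were divided. In Classical mono, Ms4a4a was at 340 CPM on average, Ms4a4c at 222 and Ms4a4b at 118. Against Classical mono the sum was -0.67 in Early CMDM (edgeR adjusted p = 0.00864), where Ms4a4a alone did not pass. It was 0.14 in Late CMDM (0.615), where Ms4a4a alone was higher, and -1.12 in Resident-like (0.000393), where Ms4a4a alone did not pass. A sum of Ms4a4b and Ms4a4c alone was not made.

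Of 11 related genes fixed as a list, 9 were in the table and 6 passed the filter. In Early CMDM 1 was higher and 2 were lower than in Classical mono, where 44.9% of all genes were called, and with leukocyte scaling 3 were higher and 0 lower. In Late CMDM 3 were higher and 0 lower than in Early CMDM, where 31.9% of all genes were called, and leukocyte scaling gave 1 higher and 4 lower. Late CMDM against Classical mono had 1 higher and 2 lower, beside 35.6% of all genes, and 1 higher and 1 lower with leukocyte scaling. Resident-like against Late CMDM had 3 higher and 1 lower with both scalings, beside 28.1% of all genes with TMM, and against Classical mono 4 higher and 0 lower with both, beside 23.7%. Resident-like against Early CMDM had 3 higher and 0 lower, beside 46.6% of all genes, and 3 higher and 3 lower with leukocyte scaling. With leukocyte scaling 20268 of all 22118 genes were called for Early CMDM against Classical mono (19741 higher) and 16087 for Late against Early CMDM (153 higher). Late CMDM against Classical mono had 13169 called (11940 higher) and Resident-like against Late CMDM 10950 (637 higher). Resident-like had 3567 called against Classical mono (1838 higher) and 19878 against Early CMDM (344 higher). Ms4a14 (chr19:11301249-11314454) lies nearest to Ms4a7 among the listed genes, and its mean levels had the same order over the fractions as those of Ms4a7. It was at 5.05, 4.51 and 5.35 CPM in Classical mono, 9.03, 6.20 and 10.3 in Early CMDM, 25.9, 25.7 and 29.0 in Late CMDM, and 12.5, 8.61 and 9.59 in Resident-like. Late CMDM exceeded Classical mono by 2.43 (SE 0.18, edgeR adjusted p = 4.79e-08) and Early CMDM by 1.66 (SE 0.17, edgeR adjusted p = 2.63e-06), and Resident-like was below Late CMDM by a log2 difference of -1.39 (SE 0.17, edgeR adjusted p = 1.66e-05). With leukocyte scaling the 3 differences were 3.10, 0.74 and -1.97, and all passed the test.

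The related genes Tmem176a and Tmem176b, which encode MS4A-like membrane proteins known from dendritic cells, had a different pattern. Tmem176b was at 215, 232 and 233 CPM in Classical mono, 73.0, 77.8 and 77.4 in Early CMDM, 111, 116 and 83.5 in Late CMDM, and 462, 501 and 516 in Resident-like. Resident-like exceeded Late CMDM by 2.25 (SE 0.12, edgeR adjusted p = 1.99e-09) and Classical mono by 1.12 (SE 0.11, edgeR adjusted p = 1.74e-06), and leukocyte scaling left both calls, at 1.67 and 1.22. For Tmem176a the differences were 2.37 and 1.33 (edgeR adjusted p = 4.30e-09 and 1.10e-06), and 1.78 and 1.43 with leukocyte scaling. Both genes were higher in Late than in Early CMDM with TMM, by 0.49 for Tmem176a and 0.44 for Tmem176b, and lower with leukocyte scaling (-0.48 and -0.52). For Tmem176a that TMM call was lost without Late CMDM replicate 1 (edgeR adjusted p = 0.0541) or replicate 2 (0.0705). The 7 markers of dendritic and Langerhans cells summed to 934 to 1240 CPM in Resident-like and to 157 to 269 CPM in the other fractions. Most of the sum in Resident-like was Cd207, the langerin gene of Langerhans cells, at 819 ± 125 CPM. Of these markers, 4 of 7 were higher and 0 lower in Resident-like than in Late CMDM, while 2 were higher (Cd207 and Epcam) and 2 lower (Flt3 and Itgae) than in Classical mono, and none was at 0. Of all genes, 12.7% were higher in Resident-like than in Late CMDM, and 10.8% were higher and 12.9% lower than in Classical mono. The part of these markers in the Tmem176 difference was not tested.

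Ms4a2, the beta chain of the IgE receptor, had 6 to 23 counts per library in Classical mono, 2 to 10 in Early CMDM, 5 to 11 in Late CMDM and 40 to 72 in Resident-like. Resident-like exceeded Late CMDM by 2.33 (SE 0.47, edgeR adjusted p = 0.00166), and by 1.74 with leukocyte scaling. The 6 mast cell and basophil markers, of which Ms4a2 is itself one, summed to 32.9 to 53.2 CPM in Resident-like, 8.02 to 15.4 in Late CMDM, 8.54 to 9.61 in Early CMDM and 17.7 to 32.1 in Classical mono. All 5 markers that were tested were higher in Resident-like than in Late CMDM, beside 12.7% of all genes. Their part in the Ms4a2 difference was not tested. Ms4a1, which encodes CD20, was at 3.37 to 4.39 CPM on average in the 4 fractions and passed in none of the 6 comparisons with TMM. Ms4a3, known from granulocyte and monocyte progenitors, stayed at 13 counts or fewer in every library and passed in none either. With leukocyte scaling, both passed in the 3 comparisons that include Early CMDM, where Ms4a1 had log2 differences of 1.25 against Classical mono, -0.71 for Late against Early CMDM and -1.17 for Resident-like against Early CMDM. In the same order, that scaling called 20268, 16087 and 19878 of the 22118 genes, so most genes passed there.

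**Figure D5:**
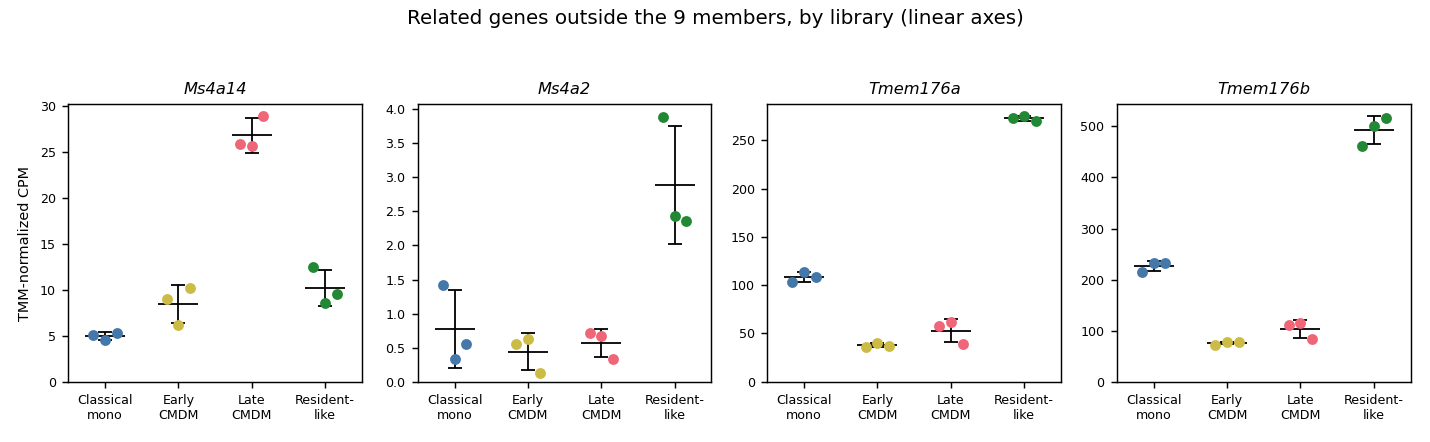
Each panel shows 1 related gene, with the fraction on the x axis and TMM-normalized CPM on a linear y axis that starts at 0. Points are libraries, long bars are means and whiskers are SD over 3 libraries. Ms4a14 is highest in Late CMDM (26.8 ± 1.86 CPM), and Ms4a2, Tmem176a and Tmem176b are highest in Resident-like.

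A list of 11 genes whose products bind MS4A proteins or signal beside them was examined in the same way (Clec7a, Syk, Card9, Plcg2, Trem2, Tyrobp, Adam10, Adam17, Vsig4, Tnfrsf18 and Fcer1g), and all 11 were tested. Against Classical mono, 8 of the 11 were lower in Early CMDM and 0 higher, where 44.9% of all genes were called, and with leukocyte scaling 7 were higher and 0 lower. In Late CMDM, 2 were higher and 5 lower than in Classical mono, beside 35.6% of all genes called, and 6 higher and 3 lower with leukocyte scaling. Late CMDM had 8 higher and 1 lower than Early CMDM, beside 31.9% of all genes, and 1 higher and 5 lower with leukocyte scaling. Resident-like had 4 higher and 0 lower than Late CMDM, beside 28.1% of all genes, and 2 higher and 5 lower with leukocyte scaling. Against Classical mono, Resident-like had 3 higher and 4 lower, beside 23.7% of all genes, and 3 higher and 3 lower with leukocyte scaling. Against Early CMDM it had 9 higher and 1 lower, beside 46.6% of all genes, and 1 higher and 7 lower with leukocyte scaling. Of all 22118 genes, leukocyte scaling called 20268 for Early CMDM against Classical mono (19741 higher) and 13169 for Late CMDM against Classical mono (11940 higher). It called 16087 for Late against Early CMDM (153 higher) and 10950 for Resident-like against Late CMDM (637 higher). For Resident-like it called 3567 against Classical mono (1838 higher) and 19878 against Early CMDM (344 higher). Clec7a, which encodes Dectin-1, the receptor paired with Ms4a4a, was at 338, 411 and 473 CPM in Classical mono, 107, 88.0 and 135 in Early CMDM, 129, 95.8 and 103 in Late CMDM, and 242, 217 and 249 in Resident-like. With TMM it was thus lowest in Early and Late CMDM, which overlapped. Clec7a was lower in Late CMDM than in Classical mono by a log2 difference of -1.90 (SE 0.16, edgeR adjusted p = 2.37e-07) and -1.22 with leukocyte scaling. It was higher in Resident-like than in Late CMDM, by 1.11 (SE 0.16, edgeR adjusted p = 8.91e-05) and by 0.54 with leukocyte scaling. Early CMDM was below Classical mono with TMM (-1.89, SE 0.16, edgeR adjusted p = 1.48e-07), a call lost with leukocyte scaling (-0.29, edgeR adjusted p = 0.0979). Resident-like was above Early CMDM with TMM (1.10, SE 0.16, edgeR adjusted p = 3.34e-05), and leukocyte scaling turned this to -0.40 (edgeR adjusted p = 0.0267). Late against Early CMDM was -0.00884 with TMM (edgeR adjusted p = 0.975) and -0.93 with leukocyte scaling (edgeR adjusted p = 1.89e-05).

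Trem2, the lipid receptor of macrophages whose release is known to be regulated by MS4A4A, was at 70.7, 60.6 and 110 CPM in Classical mono, 112, 83.0 and 156 in Early CMDM, 296, 241 and 315 in Late CMDM, and 228, 168 and 206 in Resident-like. Late CMDM was above Classical mono by 1.82 (SE 0.24, edgeR adjusted p = 5.29e-05) and by 2.49 with leukocyte scaling. It was above Early CMDM by 1.28 (SE 0.24, edgeR adjusted p = 0.000990), a call lost with leukocyte scaling (log2 difference 0.37, edgeR adjusted p = 0.0686). Resident-like against Late CMDM did not pass the test with TMM (log2 difference -0.50, SE 0.23, edgeR adjusted p = 0.134), and Resident-like was lower with leukocyte scaling (-1.07, edgeR adjusted p = 2.95e-05). A fit of only those 6 libraries also put it lower (edgeR adjusted p = 0.00495). Vsig4, the receptor described with Ms4a6d, was at 1.28 ± 0.533 CPM in Late CMDM and 0.813 ± 0.189 in Resident-like, and at 0.0780 ± 0.0391 in Classical mono and 0.209 ± 0.159 in Early CMDM, values near the limit that a count of 0 allows. Tnfrsf18, which encodes the Ms4a4b partner GITR, was at 34.6 ± 7.29 CPM in Classical mono, 21.5 ± 5.68 in Early CMDM, 9.04 ± 2.61 in Late CMDM and 8.14 ± 1.51 in Resident-like. Tnfrsf18 was lower in Late CMDM than in Classical mono (log2 difference -1.92, SE 0.23, edgeR adjusted p = 1.00e-05) and -1.24 with leukocyte scaling (edgeR adjusted p = 0.00304). Its difference of Early CMDM from Classical mono turned from -0.68 with TMM to 1.00 with leukocyte scaling (edgeR adjusted p = 0.00537). Card9, an adaptor downstream of Dectin-1, was at 23.0 ± 3.68 CPM in Classical mono, 12.3 ± 3.28 in Early CMDM, 20.8 ± 1.69 in Late CMDM and 61.6 ± 2.78 in Resident-like. For Card9, Early CMDM against Classical mono turned from -0.91 with TMM to 0.68 with leukocyte scaling (edgeR adjusted p = 0.00106). Resident-like exceeded Late CMDM by 1.57 with TMM and by 0.99 with leukocyte scaling. Tyrobp, the adaptor of Trem2, was at 1016 ± 150 CPM in Classical mono, 324 ± 80.1 in Early CMDM, 610 ± 37.6 in Late CMDM and 723 ± 105 in Resident-like. For Tyrobp, Early CMDM against Classical mono was -1.65 with TMM (edgeR adjusted p = 7.57e-07) and -0.06 with leukocyte scaling (0.722). Late against Early CMDM went from 0.91 to -0.0042 (edgeR adjusted p = 0.983 with leukocyte scaling). Late CMDM against Classical mono went from -0.74 to -0.07 (0.740 with leukocyte scaling).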

How the data were processed

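RNA-seq was performed by the authors on 12 libraries of sorted ear skin cells. Per the study's methods, reads were trimmed with cutadapt 4.1 and aligned with Bowtie2 2.4.5 to the reference RNA of GRCm38 on 1 strand, and the deposited values are read counts summed by gene symbol, without normalization. TCC, which the study used for its tests, was not installed here. Reads from close paralogs may be divided wrongly by such counting.

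The deposited counts were tested with edgeR 4.0.16 (quasi-likelihood, TMM, filterByExpr, R 4.3.3, limma 3.58.1) in 1 fit of all 12 libraries, for 6 pairs of fractions, with Benjamini-Hochberg adjustment over 22118 of 37775 genes and a threshold of 0.05. Correlations used log2 CPM with a prior count of 2, and the 3 genes with the highest Pearson r were named for each member. Total counts were 12537178 to 19844113 per library, which limits precision for low genes such as Ms4a4d, and intervals cover counting error only. No library was treated as a copy of another, since chi-square values over genes, divided by their degrees of freedom, were 4.63 to 24.7 within fractions. The columns used were all mapped by label, and 0 were left out. Transcripts were aligned with blastn 2.17.0.

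The named genes were the 9 members, a list of related genes, a list of partner genes and marker lists. The members and lists were chosen with earlier results of these data known. Alternatives were DESeq2 1.42.0, other normalizations and filters, the replicate block, a stricter threshold, summed paralogs and leaving out each library. The fit was tested on simulated data for Late against Early CMDM, where 185 of 200 genes changed 3-fold were recovered (92.5%) with 9 false calls among 21693 genes. The changed genes went up and down in equal number, and all other genes had the same mean in every fraction. In the data 31.9% of genes were called for this comparison and keratinocyte RNA differed between the fractions. The simulation held no such shift and so cannot show how the calls hold under it.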

Additional observations from a re-analysis of the deposited data

How the results depend on the processing

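Scaling by 10 pan-leukocyte genes had the largest effect of the alternatives. It kept 27 of the 54 differences of members on their side of the threshold and in their direction, brought 5 past the threshold, took 6 below it and turned 16. The values that turned were, for Early CMDM against Classical mono, 1.34 for Ms4a4d, 0.88 for Ms4a6b, 0.36 for Ms4a6c, 1.23 for Ms4a6d and 0.49 for Ms4a8a. For Late against Early CMDM they were -0.87 for Ms4a4b and -0.11 for Ms4a6c. Ms4a6c was 0.25 for Late CMDM against Classical mono, and Ms4a6d was 0.0365 for Resident-like against Classical mono. For Resident-like against Early CMDM they were -0.85 for Ms4a4b, -0.72 for Ms4a4c, -1.09 for Ms4a6b, -0.87 for Ms4a6c, -1.19 for Ms4a6d, -1.41 for Ms4a7 and -1.06 for Ms4a8a. The number of members called went from 7 to 4 for Late against Early CMDM and from 5 to 9 for Resident-like against Early CMDM, and the cause was not tested.

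DESeq2, RLE size factors and leaving out genes over 1% of counts changed none of the 54 differences in direction or call. The DEGES normalization turned Ms4a7 in Resident-like against Early CMDM to -0.0041. No filter took 4 below the threshold, and a threshold of 0.01 took 8, with 3 in place of 6 members called for Resident-like against Classical mono. With at least 10 counts in every library Ms4a4d was not tested, and the other 48 differences kept direction and call. Fitting only the 6 libraries of a comparison brought 2 past the threshold. The summed Ms4a4 paralogs, a sum that Ms4a4a dominates in both CMDM fractions, gave 0.81 for Late against Early CMDM, against a median of -0.22 for its members. Over both paralog groups and all comparisons, 6 sums lay within 1 SE of the median of their members, 5 did not and this 1 turned.

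Without 1 library, the number of members called ranged from 5 to 6 for Early CMDM against Classical mono, 6 to 8 for Late against Early CMDM, 6 to 8 for Late CMDM against Classical mono, 5 to 7 for Resident-like against Late CMDM and 4 to 7 for Resident-like against Early CMDM. For Resident-like against Classical mono it ranged from 3 to 6, with 3 without Classical mono replicate 2 or without Resident-like replicate 1. Values that turned were Ms4a4a in Early CMDM against Classical mono (-0.14 without Early CMDM replicate 3, range -0.14 to 0.39), Ms4a4b in Late against Early CMDM (-0.050 without Early CMDM replicate 2 and -0.093 without Late CMDM replicate 1, range -0.093 to 0.17), Ms4a6d in Resident-like against Classical mono (0.050 without Classical mono replicate 3, range -0.12 to 0.050) and Ms4a7 in Resident-like against Early CMDM (-0.10 without Early CMDM replicate 2, -0.043 without Resident-like replicate 1 and -0.00248 without Resident-like replicate 3, range -0.10 to 0.33). None of these differences had passed the test.

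With the replicate number as a block, 49 of 54 differences kept their call and 5 passed the threshold. These were Ms4a6d in Early CMDM against Classical mono (edgeR adjusted p = 0.0115), Ms4a6c in Late CMDM against Classical mono (0.0324), Ms4a4a in Resident-like against Classical mono (0.00191), and Ms4a6b (0.0197) and Ms4a6d (0.0271) in Resident-like against Early CMDM. The deviations of 18 pairs of libraries with the same number had correlations of -0.0987 to 0.248 (median 0.0589), with 4 over 0.1, and other pairs between fractions had -0.215 to 0.171 (median -0.0314). In 27 of 36 cases a library correlated best with the library of its own number in another fraction, and 6 of 12 libraries did so in every other fraction, a hint from the data of shared numbers. The library barcodes run by number, with the 4 fractions of a number together, but the labels give no source for the numbers. As the labels state no pairing and not every pair was over 0.1, the fit without the block was kept. Whether the numbers pair the libraries was not settled, and p-values of the main fit ignore any such pairing.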
